A study of Rattus norvegicus with 24 samples.

Results

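Transcripts of 9 interferon-regulated genes were measured in the rat brain 3 months after traumatic brain injury (TBI). Irf1, Irf7, Irf8 and Irf9 encode interferon regulatory factors, Stat2 encodes a transcription factor that works with Irf9, and Isg15, Mx1, Rsad2 and Ifit3 encode effectors that interferon switches on. The genes were taken by symbol from the deposited table, where each symbol matched 1 locus. They make up 9 of the 26641 loci that carry a gene name.

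The animals were adult male Sprague-Dawley rats that received either lateral fluid-percussion injury (TBI), in which a fluid pulse strikes the exposed dura over the left parietal cortex, or the same anesthesia and surgery without the impact (sham-operated controls). From each of 6 TBI and 6 sham-operated animals, messenger RNA of the perilesional cortex and of the ipsilateral thalamus was sequenced once, giving 4 groups of 6 libraries and 24 libraries in all. The 12 rats are named here by the numbers in the labels. The injured animals of the study were screened by MRI for a T2-bright rim around the lesion, so they stand for rats with chronic perilesional inflammation rather than for all injured rats.

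Interferons are secreted signals of antiviral defence. Type I interferons bind a receptor made of Ifnar1 and Ifnar2, whose kinases Jak1 and Tyk2 phosphorylate Stat2. Stat2 and Irf9 act in the complex ISGF3, which binds the interferon-stimulated response element (ISRE) in promoters. Interferon gamma acts through Ifngr1, Ifngr2, Jak1 and Jak2 on promoters that hold the gamma-activated site (GAS). Irf8 is also a lineage factor of microglia and other myeloid cells, and is therefore present in the brain without interferon.

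Values are normalized counts, that is, fragments per locus divided by the size factor of the library. Libraries held 30568927 to 54608922 fragments, and the 9 loci received between 28 fragments (Mx1) and 2922 fragments (Stat2) in a library. TBI was compared with sham by limma on log2(normalized count + 1) over all named loci with a mean of at least 10, with calls made at 0.05 after Benjamini-Hochberg adjustment. The fold changes and standard errors (SE) given here are on that log2 scale. All 9 loci passed the filter. Nothing in the labels says how the rats were spread over batches. Identity markers followed the tissue labels: 8 of 8 tested cortical genes were lower and 9 of 9 thalamic genes were higher in the sham thalamus than in the sham cortex.

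Promoter sequences of 8 of the 9 genes were found in RefSeq (assembly GRCr8, which is not the build of the deposited positions). Isg15 had no entry. The windows ran from 250 bases before to 50 bases after the start of transcription, and both strands were searched for the ISRE core (GAAA, any 2 bases, GAAA) and for the GAS core (TTCNNNGAA). The ISRE core was present in 3 of the 8 windows, those of Irf7, Rsad2 and Ifit3, and in 3.92% of all 33469 promoter windows. The GAS core was present in 3 of the 8, those of Irf1, Irf8 and Irf9, and in 8.87% of all windows. No promoter of the set held both cores, and those of Stat2 and Mx1 held neither in these letters. Of the 110 promoters of the other interferon pathway genes described below, 40.9% held the ISRE core and 22.7% the GAS core. A match is a description of the sequence and not a measured binding site.

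The stretches around the ISRE cores are shown because they are the sequence that the effectors Rsad2 and Ifit3 share with the factor Irf7. They lie at chr1:205800058-205800117 (minus strand), chr6:48788233-48788292 (minus strand) and chr1:241527257-241527316 (plus strand). All run 5′ to 3′ along the strand of the gene, end before the start of transcription, and have the core in capitals. In all 3 the core lies on the opposite strand and reads as its reverse complement. It begins 69 bases before the start in Irf7, 147 in Rsad2 and 44 in Ifit3.
Irf7: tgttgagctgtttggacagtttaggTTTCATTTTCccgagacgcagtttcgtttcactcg
Rsad2: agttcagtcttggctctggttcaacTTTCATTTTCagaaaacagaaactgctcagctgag
Ifit3: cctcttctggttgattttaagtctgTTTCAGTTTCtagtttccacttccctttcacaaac

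The stretches around the GAS cores, which read alike on both strands at their fixed bases, belong to 3 of the 4 regulatory factors. They lie at chr10:38417768-38417826, chr19:65699079-65699156 and chr15:33065712-33065770, all on the plus strand. The core begins 142 bases before the start in Irf1 and 99 in Irf9. Irf8 has 2 cores, beginning 180 and 161 bases before the start.
Irf1: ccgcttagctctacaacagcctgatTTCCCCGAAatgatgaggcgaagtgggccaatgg
Irf8: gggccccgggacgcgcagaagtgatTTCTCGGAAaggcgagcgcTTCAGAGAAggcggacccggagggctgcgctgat
Irf9: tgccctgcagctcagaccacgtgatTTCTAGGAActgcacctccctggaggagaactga

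In the perilesional cortex, 8 of the 9 genes were higher in TBI rats than in sham-operated controls, all except Stat2. Among all 15493 loci tested there, 14.3% were called higher and 14.9% lower. The median log2 fold change of the 9 genes was 0.64, against -0.0096 over all loci tested. For 5 genes (Irf1, Irf8, Irf9, Mx1 and Rsad2) every TBI library lay above every sham library, which held for 7.02% of all loci tested. In the ipsilateral thalamus 8 of 9 were again higher, here all except Irf7, with a median log2 fold change of 0.63 against -0.023 over all loci. There 14.5% of 15564 loci were called higher and 20.9% lower. Upper quartile scaling moved the share of all calls that were higher from 49.1% to 69.9% in the cortex and from 41.0% to 60.0% in the thalamus, and TMM scaling moved the thalamic share to 54.3%, with the 9 genes keeping their directions. The groups did not overlap for 5 genes (Irf1, Irf8, Stat2, Mx1 and Rsad2), against 7.46% of all loci.

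**Figure D1:**
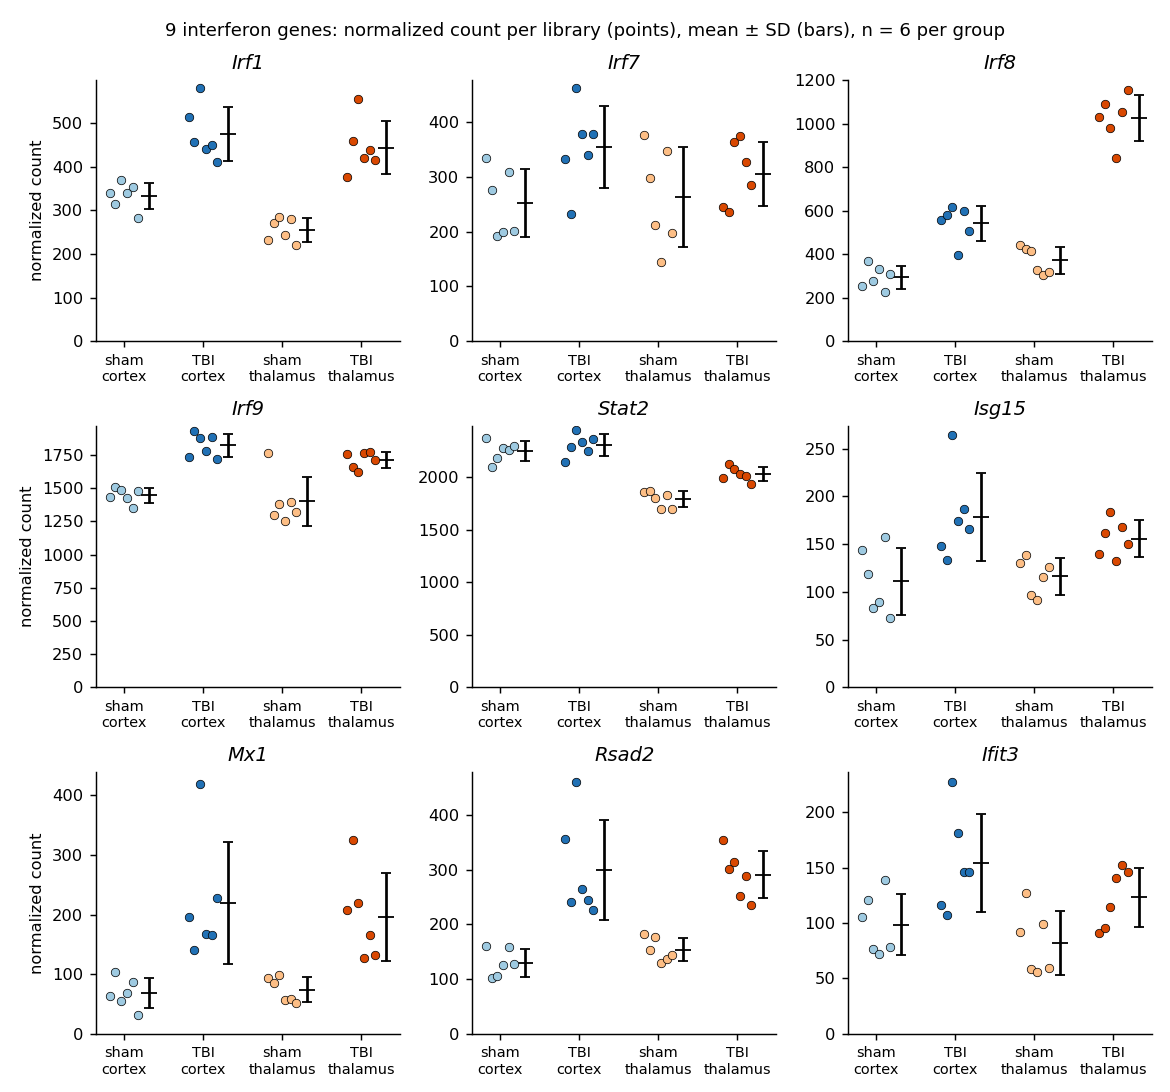
Normalized count of each of the 9 genes (vertical axes, from 0) in every library, by group; points are libraries and bars give the mean ± SD of 6 libraries. Irf8 in the TBI thalamus stands above all other groups, between 843 and 1156, and 1 TBI cortex library lies apart for Mx1 at 420.

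Irf8, which with its partner Spi1 sets the myeloid program of microglia, gave the lowest adjusted p of the set in both regions (chr19:65033751-65055591 as the files list positions; 3 unnamed loci overlap it). In the cortex it ran from 227 through a median of 293 to 370 in sham rats and from 398 through 568 to 617 in TBI rats. In the thalamus it ran from 305 (median 369) to 443 in sham rats and from 843 (median 1042) to 1156 in TBI rats. No TBI library overlapped the sham libraries of its region, and every TBI thalamus exceeded every TBI cortex, as was the case for 19.5% of all loci. The log2 fold change was 0.88 (SE 0.13, adjusted p = 0.000181 by limma) in the cortex and 1.47 (SE 0.11, adjusted p = 4.22e-07) in the thalamus.

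Irf8 was the only one of the 9 genes whose response to TBI differed between regions past the threshold. The thalamic effect exceeded the cortical effect by 0.59 (SE 0.17, 95% confidence interval 0.23 to 0.95, limma adjusted p = 0.0408) on the log2 scale. Of all 15678 loci in that test, 2.72% were called higher in this sense and 4.54% lower. The call was not firm. It was lost when rat 22, 24, 32, 38, 55, 56 or 63 was left out, with an adjusted p of up to 0.101, and the difference itself then lay between 0.52 and 0.61. It was also lost without the filter on low values (0.0557). With the rat as a block the adjusted p was 0.0183. In sham rats Irf8 was already higher in the thalamus than in the cortex by 0.34 (SE 0.13, limma adjusted p = 0.0342), and in TBI rats by 0.92 (SE 0.11, adjusted p = 3.10e-06). The sham difference was lost under TMM scaling (adjusted p = 0.0518) and without rat 26 (0.152) or rat 34 (0.113).

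Irf1, a factor induced by interferon gamma, had the next lowest adjusted p in the thalamus (chr10:38891467-38898471). Sham cortex libraries ran from 283 (median 340) to 370 and TBI cortex libraries from 411 (median 454) to 582. Sham thalamus libraries ran from 222 (median 257) to 285 and TBI thalamus libraries from 376 (median 429) to 555. The groups were apart in both regions. Irf1 rose by a log2 fold change of 0.51 (SE 0.091, limma adjusted p = 0.000899) in the cortex and of 0.79 (SE 0.099, adjusted p = 4.11e-05) in the thalamus. The difference between those effects was 0.28 (SE 0.14, adjusted p = 0.22 by limma). Sham thalamus lay below sham cortex by 0.38 (SE 0.088, adjusted p = 0.0014), whereas in TBI rats the regions differed by -0.10 (SE 0.10, adjusted p = 0.414).

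Irf9 and Stat2, the DNA-binding and activating parts of ISGF3, had small fold changes in both regions. The Irf9 locus (chr15:38155646-38180374) also carries the name Rnf31 and overlaps Psme2, so its counts may belong to more than 1 gene. It ran from 1348 (median 1456) to 1506 in sham cortex, from 1720 (median 1829) to 1933 in TBI cortex, from 1251 (median 1353) to 1761 in sham thalamus and from 1625 (median 1733) to 1771 in TBI thalamus. The cortical groups were apart, and in the thalamus 1 sham library, that of rat 26, reached the TBI range while the next sham library was at 1398. The log2 fold change was 0.33 (SE 0.048, limma adjusted p = 0.000186) in the cortex and 0.30 (SE 0.072, adjusted p = 0.00515) in the thalamus.

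Stat2 (chr7:2670237-2686283) ran from 2093 (median 2265) to 2372 in sham cortex and from 2143 (median 2308) to 2447 in TBI cortex, with the groups overlapping almost throughout. In the thalamus it ran from 1694 (median 1815) to 1871 in sham rats and from 1934 (median 2018) to 2123 in TBI rats, with no overlap. The log2 fold change was 0.036 in the cortex (SE 0.046, 95% confidence interval -0.062 to 0.14, limma adjusted p = 0.587) and 0.18 in the thalamus (SE 0.044, adjusted p = 0.0056). The difference of 0.14 between the regions did not pass the threshold (SE 0.058, limma adjusted p = 0.142). Every thalamus library lay below every cortex library of the same treatment (as did 19.2% of all loci in sham and 16.5% in TBI rats), by 0.33 in sham rats (SE 0.045, adjusted p = 1.14e-05) and 0.18 in TBI rats (SE 0.044, adjusted p = 0.00268).

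Irf7, which amplifies the production of type I interferon, was the most variable factor (chr1:221166926-221169993). In the cortex it ran from 192 (median 239) to 335 in sham rats and from 233 (median 358) to 461 in TBI rats, and 4 of 6 TBI libraries lay above all sham libraries. In the thalamus it ran from 145 (median 255) to 376 in sham rats and from 236 (median 306) to 375 in TBI rats, so that the TBI range lay within the sham range. The log2 fold change was 0.49 (SE 0.17, limma adjusted p = 0.0393) in the cortex and 0.27 in the thalamus (SE 0.21, 95% confidence interval -0.19 to 0.73, adjusted p = 0.352). The cortical call was lost when any 1 of 8 libraries was left out (sham rats 34, 38 and 55, TBI rats 22, 45, 52, 56 and 63), with an adjusted p of up to 0.0900. It was also lost when all 24 libraries shared 1 fit (0.0751) and without the filter on low values (0.0538). The effects in the 2 regions were not shown to differ (-0.22, SE 0.29, limma adjusted p = 0.707).

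Among the effectors, Mx1, a GTPase that blocks viral ribonucleoproteins, had the largest fold change in the cortex (chr11:41305969-41420543, a locus that overlaps Bace2). It ran from 31.8 (median 66.0) to 104 in sham cortex and from 141 (median 182) to 420 in TBI cortex. In the thalamus it ran from 51.4 (median 71.9) to 98.9 in sham rats and from 128 (median 186) to 325 in TBI rats. The groups were apart in both regions, and TBI libraries spread widely among themselves. Mx1 rose by a log2 fold change of 1.66 (SE 0.28, limma adjusted p = 0.000571) in the cortex and 1.36 (SE 0.24, adjusted p = 0.000507) in the thalamus.

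Rsad2 encodes viperin, a radical SAM enzyme that makes an antiviral nucleotide (chr6:54375725-54388917). It ran from 101 (median 127) to 160 in sham cortex and from 226 (median 255) to 460 in TBI cortex. In the thalamus it ran from 130 (median 149) to 183 in sham rats and from 236 (median 295) to 355 in TBI rats. No library of 1 treatment reached the range of the other. Rsad2 rose by 1.17 (SE 0.17, limma adjusted p = 0.000236) in the cortex and 0.91 (SE 0.12, adjusted p = 5.41e-05) in the thalamus.

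Isg15, a ubiquitin-like protein that is attached to other proteins (chr5:177098679-177099967), overlapped between treatments in both regions. It ran from 72.6 (median 104) to 158 in sham cortex, from 133 (median 170) to 264 in TBI cortex, from 91.3 (median 121) to 139 in sham thalamus and from 132 (median 156) to 184 in TBI thalamus. Isg15 rose by 0.70 (SE 0.20, limma adjusted p = 0.0161) in the cortex and 0.43 (SE 0.13, adjusted p = 0.0177) in the thalamus. The thalamic call was lost when all 24 libraries shared 1 fit (adjusted p = 0.0596).

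Ifit3 encodes a tetratricopeptide protein that acts with Ifit1 on foreign RNA. Its locus (chr1:260037948-260183531) overlaps those of Ifit2, Ifit1, Lipa and Ifit1lb and 2 unnamed loci. It ran from 72.0 (median 91.9) to 139 in sham cortex, from 107 (median 146) to 228 in TBI cortex, from 56.02 (median 75.5) to 127 in sham thalamus and from 91.3 (median 128) to 152 in TBI thalamus. The groups overlapped in both regions. The log2 fold change was 0.64 (SE 0.20, limma adjusted p = 0.0259) in the cortex and 0.63 (SE 0.22, adjusted p = 0.0362) in the thalamus. The cortical call was lost without sham rat 34, 38 or 55 or TBI rat 45 or 52 (adjusted p of up to 0.0624). The thalamic call was lost without sham rat 34, 38 or 55 or TBI rat 52, 56 or 63 (up to 0.0841) and without the filter on low values (0.0518).

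**Figure D2:**
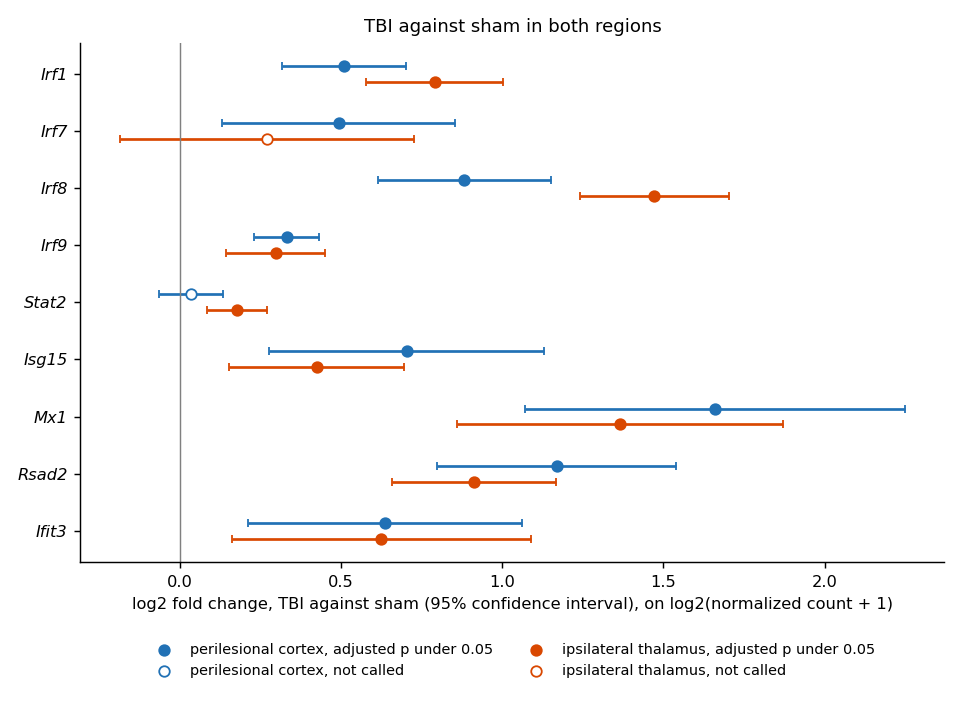
Log2 fold change of TBI against sham (horizontal axis, on log2(normalized count + 1)) for each gene, with its 95% confidence interval from limma, in the perilesional cortex and the ipsilateral thalamus; filled points passed an adjusted p of 0.05. Mx1 has the highest value in the cortex (1.66) and Irf8 in the thalamus (1.47), and only Stat2 in the cortex and Irf7 in the thalamus are open.

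The 4 groups had a similar order for most of the genes. The TBI cortex had the highest mean for 8 genes, all except Irf8, and the TBI thalamus came next for 7 of those 8, all except Stat2. In neither Irf7, Irf9, Isg15, Mx1, Rsad2 nor Ifit3 did the regions differ past the threshold, in sham or in TBI rats. Only Irf8 (higher in the thalamus) and Irf1 and Stat2 (lower) were called between the regions in sham rats, where 33.9% of 15582 loci were called higher in the thalamus and 28.3% lower. Only Irf8 (higher) and Stat2 (lower) were called in TBI rats, where 31% of 15737 loci were higher and 26.5% lower. With the rat as a block, Ifit3 was also lower in the thalamus of sham rats, by 0.29 (limma adjusted p = 0.0477, against 0.28 without the block). These comparisons between regions use the same libraries as those of TBI with sham.

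Cell type markers also differed between TBI and sham, in a way that depended on the cell type. All 18 microglial markers were tested, and 16 were higher in the TBI cortex and 18 in the TBI thalamus. Their summed normalized count was 19566 to 20724 in sham cortex, 27263 to 30711 in TBI cortex, 21211 to 27161 in sham thalamus and 41996 to 53818 in TBI thalamus, so TBI and sham were apart in each region. Of 9 astrocyte markers 5 were higher and 1 was lower in the cortex, and 5 were higher in the thalamus. Their summed normalized count was 323755 to 350668 in sham cortex, 363699 to 412113 in TBI cortex, 229454 to 254683 in sham thalamus and 352632 to 414371 in TBI thalamus, again with no overlap within a region. Gfap, the intermediate filament of reactive astrocytes, had a log2 fold change of 2.26 in both regions. The rise of the cortical sum came mostly from Gfap, whose mean count was 12344 in sham and 59944 in TBI cortex. Slc1a2, the largest part of that sum, was lower there (185200 in sham and 160246 in TBI rats). The cortical sum therefore does not stand for the whole list. Of 11 neuronal markers 9 were lower in each region. In the cortex 2 of 8 endothelial, 3 of 7 oligodendrocyte and 3 of 6 perivascular macrophage and monocyte markers were higher. In the thalamus 4 of 8, 1 of 7 and 1 of 5 were higher. Of 8 choroid plexus markers 0 were called in either region. In bulk tissue, fewer cells of a type and less RNA per cell cannot be told apart, and the part of cell composition in the changes of the 9 genes was not tested.

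Set against the microglial sum, the genes fell into different patterns. This ratio, chosen after the values were seen, is the gene's normalized count per 1000 normalized counts of the 18 markers, given here as mean ± SD of 6 libraries with no test. Irf8 stood at 14.6 ± 2.63 in sham cortex and 18.4 ± 1.99 in TBI cortex, and at 15.3 ± 1.26 in sham thalamus and 21.9 ± 1.72 in TBI thalamus. All 6 TBI thalamus libraries and 4 of the 6 TBI cortex libraries exceeded every sham library of their region. Mx1 stood at 3.38 ± 1.27 in sham cortex and 7.45 ± 3.26 in TBI cortex, and at 3.02 ± 0.608 in sham thalamus and 4.23 ± 1.62 in TBI thalamus. Rsad2 was higher relative to the markers in the TBI cortex (10.1 ± 2.82 against 6.44 ± 1.29) and close to the sham value in the thalamus (6.29 ± 1.35 against 6.33 ± 0.449).

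For the other genes the ratio of TBI to sham was near or below 1. Irf1 per 1000 marker counts was 16.5 ± 1.43 in sham cortex and 16.2 ± 1.64 in TBI cortex, and 10.6 ± 1.29 in sham thalamus and 9.52 ± 1.49 in TBI thalamus. Stat2 was lower relative to the markers in all 6 TBI libraries of each region (78.6 ± 5.81 against 111 ± 5.05 in the cortex and 43.5 ± 4.34 against 74.2 ± 4.90 in the thalamus). The same was true of the Irf9 locus (62.1 ± 2.48 against 71.6 ± 2.50 and 36.8 ± 3.69 against 57.9 ± 5.36). The marker sum itself was higher in TBI rats, with medians of 30038 against 20194 in the cortex and 46503 against 24284 in the thalamus. A gene with an unchanged count therefore gives a lower ratio in TBI rats. The count of the Irf9 locus was itself higher in TBI rats in both regions, and that of Stat2 in the thalamus. How many of all loci lie apart in this ratio was not counted. For Irf7, Isg15 and Ifit3 the TBI mean relative to the markers was 0.967, 1.10 and 1.08 times the sham mean in the cortex and 0.612, 0.694 and 0.783 times in the thalamus. Other cells express several of these genes, so the ratio is not an amount per microglial cell.

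The summed counts of the lymphocyte lists came mostly from 1 gene each. The summed count of 12 T and NK cell markers was 742 to 935 in sham cortex, 1334 to 1662 in TBI cortex, 717 to 1101 in sham thalamus and 2544 to 4214 in TBI thalamus. That of 4 B cell markers was 28.0 to 61.2, 207 to 321, 73.5 to 115 and 515 to 1317 in the same order. Cd4, which rat microglia and macrophages also express, made up most of the T and NK cell sum, with a mean normalized count of 789 in sham cortex, 1359 in TBI cortex, 862 in sham thalamus and 2983 in TBI thalamus. It was the 1 marker called among 4 tested in the cortex, where limma gave Cd3e an adjusted p = 0.623, Cd2 0.491 and Cd8a 0.985. In the thalamus both tested markers, Cd4 and Cd8b, were higher. The mean Cd8b count was 0.165 in sham and 20.7 in TBI thalamus, so it was tested only because of its TBI libraries. In the cortex Cd8b had means of 0.924 in sham and 10.8 in TBI rats and did not reach the filter. Cd22, the 1 tested gene of the B cell list, made up most of that sum and was higher in both regions. Of the markers of plasmacytoid dendritic cells, which are specialised producers of type I interferon, Siglech and Ly6d had at most 3 fragments in every library. The other matched genes of that list are shared with other cells.

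The rats differed among themselves in a way that ran through both regions for some of the genes. This was noticed after the values were seen. Sham rats 26, 32 and 50 had the 3 highest Irf7 values of the sham cortex (335, 276 and 309, against 192 to 202 in rats 34, 38 and 55) and also of the sham thalamus (376, 298 and 347, against 145 to 212). The same 3 rats had the highest sham values of Ifit3 in both regions (105 to 139 against 72.0 to 78.2 in the cortex and 91.6 to 127 against 56.02 to 59.4 in the thalamus). Among the injured animals, rat 24 had the lowest Irf7 in both regions.

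After the group means were subtracted, the correlation between a rat's cortex and its thalamus over the 12 rats was 0.85 for Irf7, a value that 0.829% of loci reached or passed. It was 0.72 for Ifit3 (3.69% of loci), 0.59 for Irf1, 0.48 for Isg15, 0.37 for Rsad2, 0.33 for Irf8, 0.13 for Mx1, -0.10 for Stat2 and -0.22 for Irf9. The median over all loci was 0.14. These are descriptions: both libraries of a rat share the animal, its dissection and its handling.

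**Figure D3:**
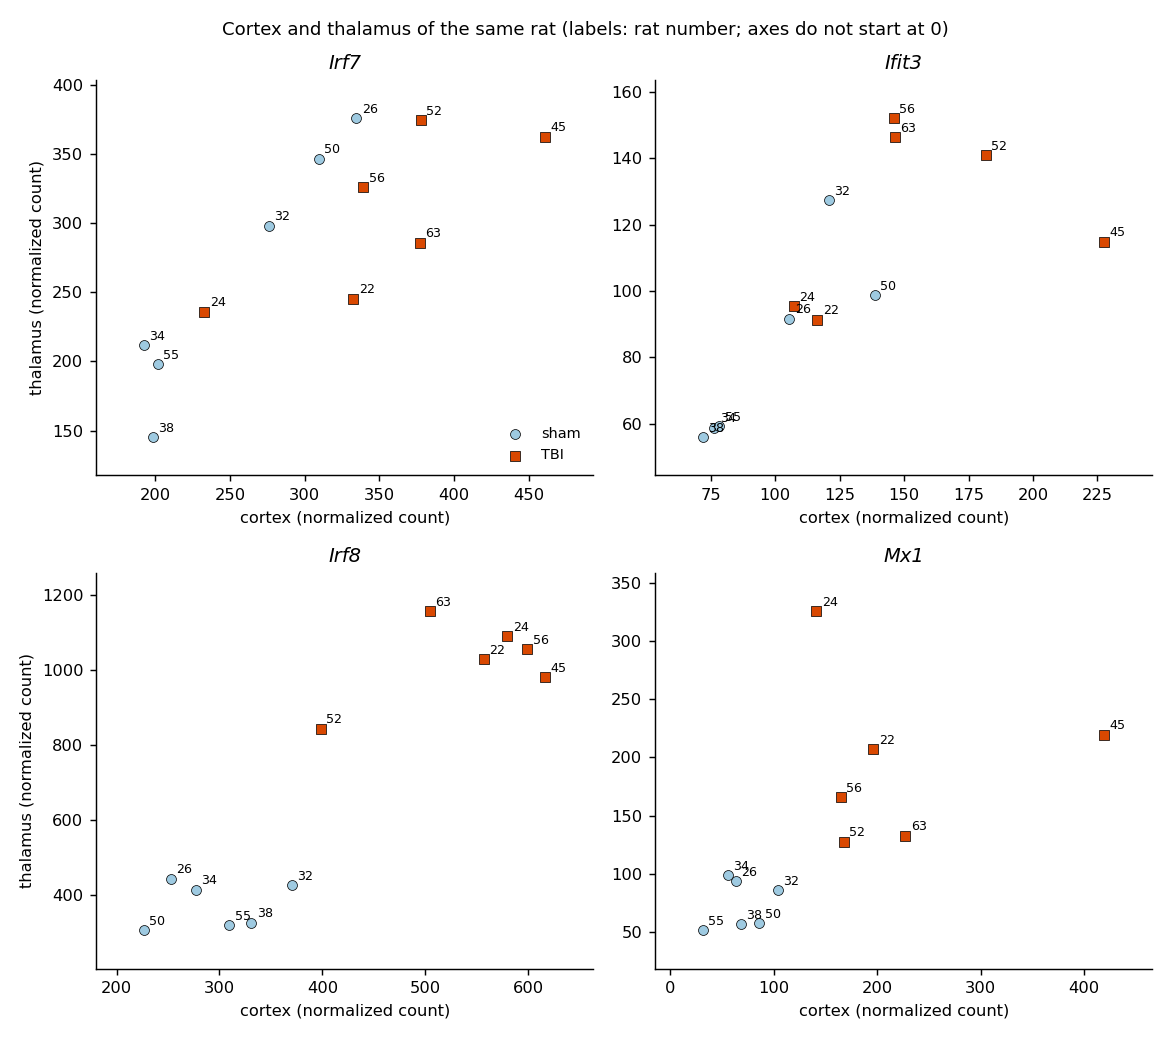
Normalized count in the cortex (horizontal) and in the thalamus (vertical) of the same rat for Irf7, Ifit3, Irf8 and Mx1; circles are sham-operated rats, squares TBI rats, numbers name the rats, and the axes do not start at 0. Sham rats 26, 32 and 50 lie above rats 34, 38 and 55 for Irf7 in both regions, whereas Irf8 separates TBI from sham without overlap.

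Some of the genes also varied together within groups. Over the 24 libraries with group means subtracted, the 36 pairs of genes had a median correlation of 0.32, from -0.20 to 0.82. The highest were Ifit3 with Irf7 (0.82), Ifit3 with Isg15 (0.72), Isg15 with Irf7 (0.70) and Mx1 with Isg15 (0.61). Among the effectors, Ifit3 with Mx1 (0.30) and with Rsad2 (0.17) lay under the median. Irf8 and the Irf9 locus were least like the others, with correlations of 0.13 and 0.18 with the mean of the other 8 genes. Irf1 followed at 0.38, against 0.68 for Isg15 and 0.67 for Irf7. The points share their libraries and, in pairs, their rats.

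The loci most like the mean of the 9 genes over the 24 libraries as they are were Gbp2 (r = 0.95), C2 (0.95), Irgm (0.95), C1s (0.94) and a locus named only ENSRNOG00000000443 (0.94). C2 and C1s encode early complement proteases, and Gbp2 and Irgm interferon-inducible GTPases. With group means subtracted, so that the treatment and the region no longer contribute, they were Igtp (0.90), Irgm (0.86), Gbp2 (0.85), Sp110 (0.83) and Ddx58 (0.82), the last encoding the RNA sensor RIG-I.

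TBI rat 45 stood apart. In the cortex it had the highest value of 8 of the 9 genes, all except Irf9. The same library had the highest TBI cortex sum of 8 choroid plexus markers, 33222 against a group median of 1301, and the highest sum of perivascular macrophage and monocyte markers, 1591 against a group median of 1110. Its thalamus library had a choroid plexus sum of 265601 against a group median of 1521. The sham thalamus libraries of rats 34 and 50 also had high choroid plexus sums (68877 and 108972), as did the sham cortex libraries of rats 26 and 34 (24151 and 11554). The part of these in the values of the 9 genes was not tested. Without rat 45 the cortical log2 fold change was 1.45 for Mx1 (limma adjusted p = 0.000728), 1.03 for Rsad2 (adjusted p = 0.00025), 0.59 for Isg15 (adjusted p = 0.0367), 0.41 for Irf7 (adjusted p = 0.0889) and 0.52 for Ifit3 (adjusted p = 0.0584).

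The interferon ligands themselves were close to absent from these libraries. Of 12 ligand genes 9 matched a locus and none reached the filter. Ifnb1, Ifna5, Ifna16l1 and Ifnl3 had 0 fragments in all 24 libraries, which allows up to 3 fragments per library. The highest value was 5 fragments, for Ifng, which had 12 fragments over 24 libraries. The floor covers counting error only.

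Of the 118 matched genes of the pathway other than the 9, 101 were tested in the cortex, where 56 were higher and 3 lower, with a median log2 fold change of 0.40. In the thalamus 98 were tested, of which 65 were higher and 6 lower, with a median of 0.51. These counts stand beside the shares of 14.3% and 14.5% of all loci called higher and 14.9% and 20.9% called lower. The lists were written from general knowledge of the pathway, with earlier results of these data known, so the counts are a description and not an independent test.

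**Figure D4:**
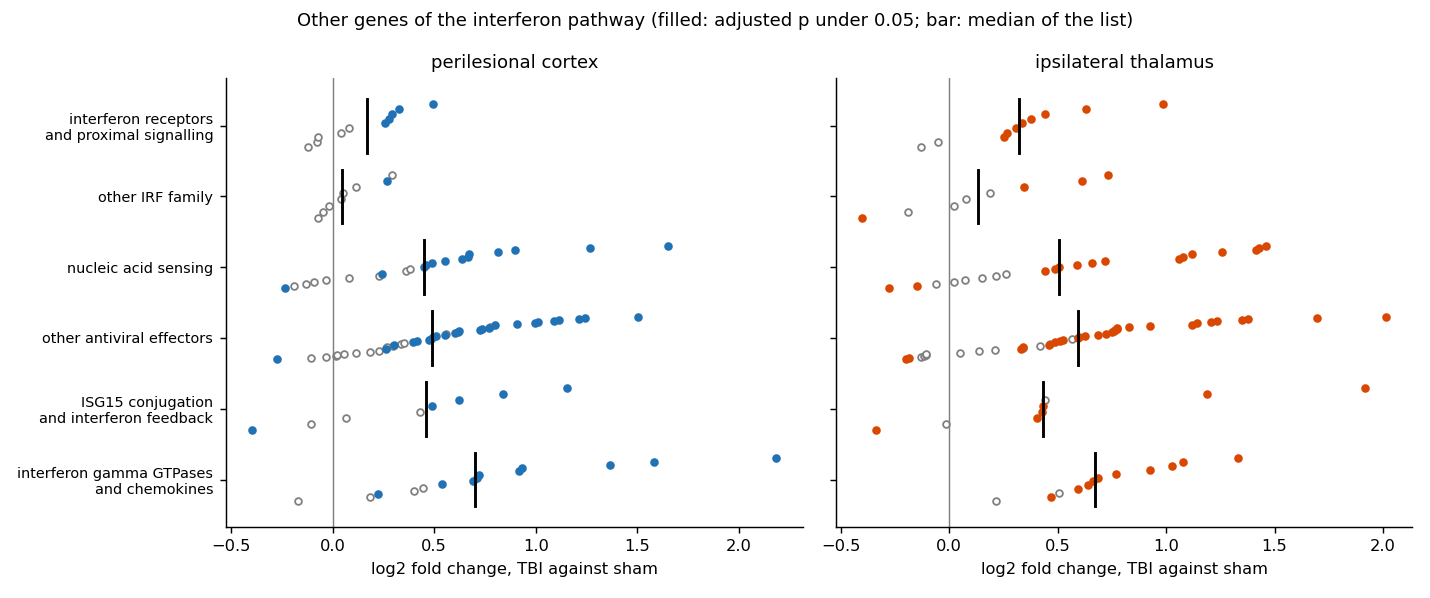
Log2 fold change of TBI against sham (horizontal axes) for every tested gene of 6 lists of the interferon pathway, in the perilesional cortex and the ipsilateral thalamus; filled points passed an adjusted p of 0.05 and black bars are list medians. The highest cortical point is Cxcl10 at 2.18 and the highest thalamic points are Ifi27l2b at 2.02 and Socs3 at 1.92.

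Receptors and their proximal kinases and STATs carry the signal from the ligand to the nucleus. In the cortex 5 of 10 were higher, among them Il10rb (0.49, limma adjusted p = 0.000226), Stat3 (0.32), Ifngr1 (0.29) and Tyk2 (0.28). In the thalamus 8 of 10 were higher, led by Il10rb (0.99, limma adjusted p = 3.18e-06), Ifngr1 (0.63), Ifnar2 (0.44) and Stat3 (0.38).

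The test of the difference between regions called 6 pathway genes, all with the larger effect in the thalamus. These were Tlr7, an endosomal RNA sensor (difference 0.57, adjusted p = 0.00583), Il10rb (0.49, adjusted p = 0.00868), Irf5 (0.46, adjusted p = 0.00247), Jak2 (0.43, adjusted p = 0.00119), Ifnar2 (0.36, adjusted p = 0.0293) and Ifngr1 (0.34, adjusted p = 0.00895), all by limma over 24 libraries. Tlr7 and Jak2 are named here after their values were seen. Ifnar2 lost its call without rat 24, 26, 38, 50, 55 or 63 (adjusted p of up to 0.0838). With the rat as a block 9 genes were called in this direction, adding Ifi27l2b, Slfn2 and Epsti1. Gbp2 was then called in the other direction, with a smaller effect in the thalamus (-0.44, limma adjusted p = 0.0429, against 0.235 without the block).

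Of the other interferon regulatory factors and their binding proteins, 1 of 8 was higher in the cortex (Irf5, 0.27, limma adjusted p = 0.0104). In the thalamus Irf5 (0.73), Irf4 (0.61) and Irf3 (0.35) were higher and Irf2bp1, a corepressor, was lower (-0.40, limma adjusted p = 0.00319). The locus of Irf2bp1 also carries the name Mypop. Irf5 drives inflammatory cytokine genes in myeloid cells, and Irf3 is the factor that starts type I interferon transcription after nucleic acid sensing.

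Nucleic acid sensors and their adaptors were higher for 12 of 21 tested genes in the cortex and 13 of 21 in the thalamus. The largest cortical changes were in Zbp1, a sensor of Z-form nucleic acid (1.65, limma adjusted p = 0.000991), the endosomal receptor Tlr8 (1.26), the DNA sensor Aim2 (0.90) and Unc93b1, the chaperone of endosomal Toll-like receptors (0.82). In the thalamus they were in Zbp1 (1.46, limma adjusted p = 0.00127), Aim2 (1.43), Tlr8 (1.42) and the DNA receptor Tlr9 (1.26). The mean Zbp1 count was 4.78 in sham and 17.7 in TBI cortex, and 6.37 in sham and 19.6 in TBI thalamus. Its sham means lay under the minimum of 10, so Zbp1 was tested only because of its TBI libraries. Lower were Traf3 in the cortex (-0.24, limma adjusted p = 0.0283) and Tbk1 (-0.28, adjusted p = 0.00469) and Adar (-0.15, adjusted p = 0.0437) in the thalamus. Adar lost its call without any 1 of 10 of the 12 libraries (limma adjusted p of up to 0.0937), under TMM scaling (0.155), without the filter (0.059) and under upper quartile scaling (0.276). Traf3 lost it without sham rat 26 or 32 or TBI rat 52 or 56 (up to 0.0643) and under upper quartile scaling (0.106).

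Other antiviral effectors were higher for 24 of 40 tested genes in the cortex and 26 of 39 in the thalamus. The largest cortical changes were in Mx2 (1.501, limma adjusted p = 8.88e-06), Slfn13 (1.24), Ifi27l2b (1.21) and Oas2 (1.11). In the thalamus they were in Ifi27l2b (2.02, limma adjusted p = 2.41e-05), Slfn13 (1.698), Ifitm1 (1.38) and Mx2 (1.35). Ifit2, a relative of Ifit3, was lower in the thalamus (-0.20, limma adjusted p = 0.0221). This call was lost under TMM (limma adjusted p = 0.0786) and upper quartile scaling (0.167), with all 24 libraries in 1 fit (0.11) and without sham rat 50 (0.0569).

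In the list for ISG15 conjugation and interferon feedback, 4 of 8 tested genes were higher in the cortex and 5 of 8 in the thalamus. Uba7 and Ube2l6, which activate and transfer Isg15, had log2 fold changes of 0.62 (limma adjusted p = 0.00399) and 0.49 (adjusted p = 0.00241) in the cortex and both of 0.43 in the thalamus. Herc6, a ligase of the Isg15 system in rodents, was higher in the thalamus (0.41, limma adjusted p = 0.00228). Herc3, which the list also holds, was lower in both regions (-0.40 and -0.34). Any part of Herc3 in the Isg15 system was not tested. The feedback inhibitors Socs3 and Ptpn6 rose in both regions, Socs3 by 1.15 (cortex) and 1.92 (thalamus) and Ptpn6 by 0.84 and 1.19. Socs1 of the same list did not reach the filter. Its mean count was 3.88 in sham and 3.15 in TBI cortex, and 1.95 in sham and 1.38 in TBI thalamus. Pias1 was not called in the cortex (limma adjusted p = 0.249) or the thalamus (adjusted p = 0.897). Socs1 and Pias1 are named here after their values were seen. The Isg15-removing protease Usp18 had values of 0.43 (limma adjusted p = 0.08) and 0.44 (adjusted p = 0.0525).

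Interferon gamma GTPases, chemokines and immunoproteasome genes were higher for 10 of 14 in the cortex and 10 of 12 in the thalamus, and none was lower. In the cortex the largest changes were in the chemokines Cxcl10 (2.18, limma adjusted p = 0.000178) and Cxcl11 (1.58) and the GTPases Gbp2 (1.37) and Gbp5 (0.93). In the thalamus they were in Ciita, the master regulator of MHC class II (1.33, limma adjusted p = 0.00203), Cxcl10 (1.08, adjusted p = 0.0282), the immunoproteasome subunit Psmb8 (1.03) and Gbp2 (0.93). The mean Cxcl10 count rose from 16.2 to 84.2 in the cortex and from 18.2 to 41.3 in the thalamus. The mean Cxcl11 count was 6.62 in sham and 21.3 in TBI cortex, and that of Ciita 7.01 in sham and 19.7 in TBI thalamus. With sham means under 10, Cxcl11 and Ciita were tested there only because of their TBI libraries. The thalamic call of Cxcl10 was lost without any 1 of 6 libraries (adjusted p of up to 0.0648).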

How the data were processed

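The 24 stranded libraries were made from polyadenylated RNA of 2 regions, perilesional cortex and ipsilateral thalamus, in 6 TBI and 6 sham-operated animals. Per the labels, the authors used TopHat2 2.0.11, Bowtie2 2.2.2 and Cufflinks 2.2.1, and the deposited normalized counts are fragment counts (a signal per locus) after the authors' division by each library's size factor. Labels name Rnor_5.0 and the methods RGSC3.4, and deposited positions reach 290090286 on chromosome 1. Low values were whole multiples of the value of 1 fragment in every library, up to 1000 fragments and within 0.1 fragment in 100% of values, which gave 30568927 to 54608922 fragments per library. The 15693 loci without a gene name (1.9% to 2.23% of normalized counts) were left out.

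Groups came from the labels. TBI was compared with sham in each region, thalamus with cortex in each treatment, and the TBI effects between regions, by limma 3.58.1 (lmFit, eBayes with trend, two-sided) in R 4.3.3 on log2(normalized count + 1). Loci with a mean under 10 were filtered out before the fit, with Benjamini-Hochberg adjustment over all loci tested. This scale understates changes of low genes. The p-values of TBI against sham measure the spread between rats. The main fits that compare regions, or the TBI effects between regions, took both libraries of a rat as independent. Their p-values do not measure the spread of differences within rats. The steps were tested on simulated data. The members, lists and tests were chosen with earlier results of these data known. Named were the 9 genes, from each list every called gene where 5 or fewer were called in a direction and otherwise the 4 with the largest change, and the 5 loci most like the mean of the 9 genes, except for 2 genes that are not reported here.

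Rat numbers recur across the regions in the labels, so each rat gave a library of both. After group means were removed, the libraries of 1 rat correlated at a median of 0.187 (12 rats, 0.00393 to 0.569, 10 of 12 over 0.1), against -0.0332 between different rats. A fit with the rat as a block was the alternative. Other alternatives were TMM and upper quartile scaling, no filter, a filter at a mean of 50, a pseudocount of 0.1 or of 5, a threshold of 0.01, all 24 libraries in 1 fit, leaving out each library, and, chosen after seeing the data, the quasi-likelihood test of edgeR 4.0.16 on the recovered fragments. Python 3.11.15 (pandas 2.3.3, matplotlib 3.10.9) served for tables and figures.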

Additional observations from a re-analysis of the deposited data

Results flagged for a closer look

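Dixon's ratio is the gap of an extreme library to its nearest neighbour, divided by the range of the group. Among 36 groups of 6 libraries (9 genes in 4 groups), it passed the 95% critical value of 0.625 in 2. Chance gives about 1 in 20 groups, and 2 of 36 is close to that share. For Mx1 in the TBI cortex, rat 45 was at 420 and the next library at 227. For the Irf9 locus in the sham thalamus, rat 26 was at 1761 and the next library at 1398.

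The TBI effect differed between the regions by the test of the difference itself, with the larger effect in the thalamus, for Irf8 (0.59, limma adjusted p = 0.0408) and for 6 other pathway genes. These were Ifnar2 (0.36), Ifngr1 (0.34), Il10rb (0.49), Jak2 (0.43), Irf5 (0.46) and Tlr7 (0.57). The summed count of the 18 microglial markers also differed more between TBI and sham in the thalamus, with medians of 46503 and 24284, than in the cortex, with medians of 30038 and 20194, and its part in these differences was not tested.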

How the results depend on the processing

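Of the alternatives for the 9 genes, 798 gave the same direction and side of the threshold, 41 kept the direction and lost the call, 2 gained a call and 14 turned the direction. None of the 14 concerned a called difference. For the genes named from the other lists, 1216 were the same and 52 lost the call. The count of the 9 genes called higher in the cortex was 8, and 5 at a threshold of 0.01 (6 to 8 on leaving out 1 library). In the thalamus it was 8, with 7 to 8 on leaving out 1 library. Other pathway genes lower in the thalamus numbered 6, and 3 under TMM scaling, upper quartile scaling or a threshold of 0.01, and 3 to 6 on leaving out 1 library. For the difference between the regions the count of the 9 genes was 1, and 0 without the filter or at a threshold of 0.01, and 0 to 1 on leaving out 1 rat. Pathway genes with the smaller effect in the thalamus numbered 0, with the rat as a replicate block 1 (Gbp2), and 0 to 1 on leaving out 1 rat (Irf2bp1 without rat 52). In sham rats the count higher in the thalamus was 1, and 0 under TMM scaling or at a threshold of 0.01, and 0 to 1 on leaving out 1 rat. In TBI rats the count lower in the thalamus was 1, and 2 under TMM scaling, which added Irf9 (-0.11, limma adjusted p = 0.0489). The edgeR test changed no call of the 9 genes, and the block changed no call other than those given. The cause of these changes was not tested.

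Directions turned for differences near 0. On leaving out 1 rat, the difference between the regions' effects ran from -0.065 to 0.036 for Irf9 and from -0.084 to 0.12 for Ifit3. Sham thalamus against cortex ran from -0.013 to 0.11 for Irf7, which was at -0.016 under TMM scaling, and from -0.024 to 0.22 for Isg15. TBI thalamus against cortex ran from -0.40 to 0.023 for Mx1 and from -0.066 to 0.11 for Rsad2, both above 0 without rat 45. Depth limited the ligands, of which none reached the filter.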
